A study of Mus musculus with 6 samples.

Results

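The genes described here are those of glutathione metabolism in mouse white adipose tissue. They are the rows of the deposited expression table whose pathway annotation holds the KEGG pathway ko00480 and neither ko00030 (pentose phosphate pathway) nor ko00020 (tricarboxylic acid cycle). The rule found 67 of 21959 genes. It left out 5 further rows of ko00480, among them the NADPH-making enzymes G6pdx, Pgd, Idh1 and Idh2. Of the 67 genes, 48 passed the filter on low counts and were tested, 11 others had at least 1 read, and 8 had none in any of the 6 libraries.

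RNA was sequenced from 3 libraries of wild-type mice (WT, replicates 10, 11 and 12) and 3 of mice with the genotype ++Oxtr (replicates 7, 8 and 9), whose columns the file headers mark tg. The series text calls the fat gWAT. No source used here gives the construct behind ++Oxtr, its promoter, or the age and sex of the mice. The labels do not tie a replicate to an animal, and p-values therefore cover the variation among these libraries alone, part of which may be technical. The tissue label was checked against adipocyte markers: Adipoq, the gene of adiponectin, was at 2282 to 2822 CPM (library-scaled counts) in every library. Total counts ran from 14314517 to 19186696 per library, and a count of 0 allows up to 0.156 to 0.21 CPM, for counting error only. Oxtr, the gene of the oxytocin receptor, was at 22.0, 61.4 and 45.2 CPM in WT 10, 11 and 12 and at 90.7, 89.7 and 81.8 CPM in ++Oxtr 7, 8 and 9, so the groups did not overlap. Its log2 fold change was 1.03 (SE 0.34), at an edgeR adjusted p of 0.469 and a DESeq2 adjusted p of 0.0573.

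Glutathione is a tripeptide of glutamate, cysteine and glycine and the most abundant small thiol of cells. Glutamate-cysteine ligase and glutathione synthetase make it, peroxidases spend it on peroxides, transferases couple it to reactive lipids and foreign compounds, and glutathione reductase returns the oxidised form with NADPH. In adipocytes the transferase Gsta4 is known for clearing lipid aldehydes. The microsomal transferases are small membrane proteins of the MAPEG family, which also holds leukotriene C4 synthase. MGST2 itself can make leukotriene C4.

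Mgst2 was the gene of the set with the smallest p. It had 206, 197 and 200 reads in WT 10, 11 and 12 and 485, 456 and 401 reads in ++Oxtr 7, 8 and 9. Scaled to library size it was at 12.1, 13.7 and 13.1 CPM in WT and at 25.8, 30.04 and 27.1 CPM in ++Oxtr. Every ++Oxtr library thus lay above every WT library, with little spread in either group. The means were 13.0 ± 0.767 CPM in WT and 27.6 ± 2.19 CPM in ++Oxtr (SD, n = 3). This is a 2.13-fold difference, or a log2 fold change of 1.09 (SE 0.12). By edgeR's quasi-likelihood test its unadjusted p of 1.99e-05 ranked 2 among 13566 genes, and its Benjamini-Hochberg adjusted p was 0.121, the smallest value of the fit, which 13 genes shared. DESeq2 gave it an adjusted p of 5.88e-09, at rank 7. An exact 2-sided permutation test gave 0.1, which no comparison of this size can go below.

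The call on Mgst2 therefore depended on the tool, while its size did not. Over the alternatives its log2 fold change stayed between 0.95 and 1.14. The adjusted p stayed above the threshold of 0.05 in edgeR and limma fits, at 0.0674 to 0.481, and under it in every DESeq2 fit with a library left out, at 3.68e-07 to 7.53e-06. Mgst2 was singled out with earlier results of these data known, so its rank is a description.

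The other microsomal transferases did not show this difference. Mgst1, the liver-type enzyme that conjugates and reduces lipid peroxides, was at 914, 829 and 782 CPM in WT and at 761, 662 and 906 CPM in ++Oxtr. Its groups overlapped (log2 fold change -0.12, SE 0.14, edgeR adjusted p 0.845). Mgst3, which also has peroxidase activity, was at 120, 110 and 106 CPM in WT and at 144, 121 and 103 CPM in ++Oxtr, overlapping as well (log2 fold change 0.13, SE 0.13, edgeR adjusted p 0.804). The difference itself can be read from the make-up of the family per length. Mgst2 held 0.579%, 0.716% and 0.725% of the summed FPKM (a level per length and library size) of the 3 genes in WT. In ++Oxtr it held 1.35%, 1.81% and 1.33%. These shares rest on the same Mgst2 reads as above, so they are a description and no separate support. Mgst1 held 73.3% to 81.7% over all libraries, so Mgst2 remained the least abundant of the family in both groups.

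**Figure D1:**
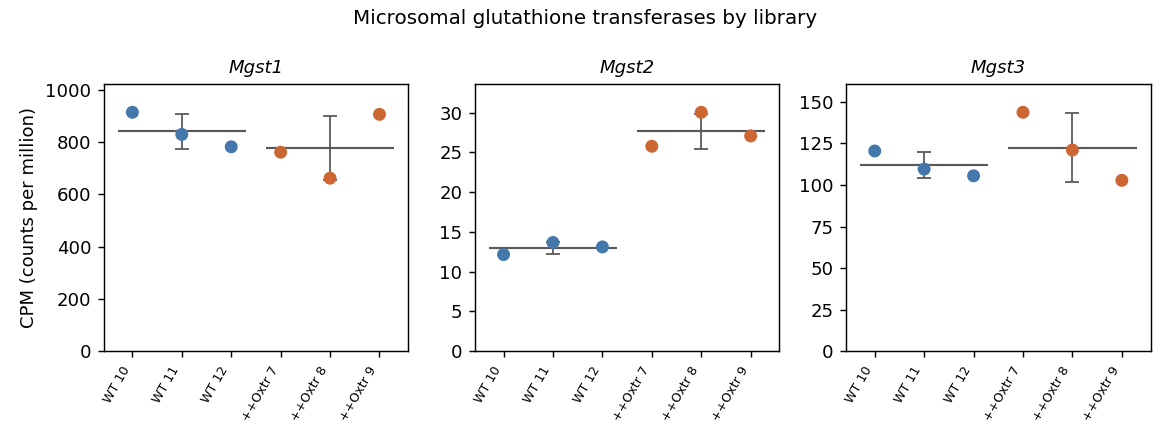
CPM of Mgst1, Mgst2 and Mgst3 in each library (points: blue WT, orange ++Oxtr; horizontal lines: group means; bars: SD of 3 libraries). The ++Oxtr points of Mgst2 lie at 25.8 to 30.04 CPM, above the WT points at 12.1 to 13.7, while the groups overlap in Mgst1 and Mgst3.

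Mgst2 lies at chr3:51660360-51682677 on the plus strand (GRCm38, GENCODE M21, protein coding), Mgst1 at chr6:138140316-138156755 and Mgst3 at chr1:167371966-167393841. The positions in the deposited table differ from these for all 67 genes, so the counting may have used another build, and overlaps and shared stretches given here are those of GENCODE M21. No exon of Mgst2 overlaps an exon of another gene in that annotation, and 0.475% of its transcript stretches of 50 bases occur in transcripts of another gene. The nearest tested genes on either side were Setd7, a lysine methyltransferase, at -0.17 (SE 0.09) and Maml3, a Notch coactivator, at 0.07 (SE 0.25) on the log2 fold change scale, so the difference was not seen in them.

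The promoter windows of the 3 genes are shown because the groups separated in Mgst2 and overlapped in Mgst1 and Mgst3. They run from 250 bases before to 50 bases after a RefSeq transcript start (GRCm38.p6), and 56 of the 67 genes had such a window. Capitals mark 2 motifs searched on both strands: TGACNNNGC, the core of the antioxidant response element read by NRF2, and TGANTCA, the AP-1 site. The Mgst1 window, 1 of 2, is chr6:138140277-138140576 (plus strand), the Mgst2 window chr3:51660929-51661228 (plus strand) and the Mgst3 window chr1:167393792-167394091 (minus strand). The Mgst2 window lies inside the GENCODE M21 gene, which starts at 51660360, so the bases before that start were not searched.
Mgst1: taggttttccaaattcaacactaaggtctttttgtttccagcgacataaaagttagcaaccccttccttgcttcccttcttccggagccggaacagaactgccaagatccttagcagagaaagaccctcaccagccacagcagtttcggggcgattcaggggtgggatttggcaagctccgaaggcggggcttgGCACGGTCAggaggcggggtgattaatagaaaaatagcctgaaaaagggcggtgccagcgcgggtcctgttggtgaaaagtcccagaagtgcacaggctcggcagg
Mgst2: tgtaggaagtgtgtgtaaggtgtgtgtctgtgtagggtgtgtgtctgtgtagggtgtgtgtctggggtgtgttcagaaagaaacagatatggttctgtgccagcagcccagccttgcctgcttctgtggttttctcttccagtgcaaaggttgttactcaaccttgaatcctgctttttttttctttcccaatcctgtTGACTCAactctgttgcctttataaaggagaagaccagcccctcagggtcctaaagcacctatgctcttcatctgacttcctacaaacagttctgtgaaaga
Mgst3: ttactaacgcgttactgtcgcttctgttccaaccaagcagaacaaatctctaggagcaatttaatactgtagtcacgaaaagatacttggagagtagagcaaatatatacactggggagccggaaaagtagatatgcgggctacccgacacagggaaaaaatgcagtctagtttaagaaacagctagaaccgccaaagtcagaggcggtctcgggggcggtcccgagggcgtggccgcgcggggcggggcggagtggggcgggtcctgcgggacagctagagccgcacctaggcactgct
The Mgst1 window held the antioxidant core at position -56 from the start, the gene's other window held neither motif, the Mgst2 window held TGACTCA at position -52, and the Mgst3 window held neither. The 56 genes had 72 windows, and 10 of these held the antioxidant core (13.9%), against 12.4% of all 32851 windows of this length. Among the 54 windows of tested genes 10 held it (18.5%), and 3 of these belonged to Ggt1. The AP-1 site was in 4 of the 72 (5.56%), against 7.81% of all windows, and in 4 of the 54 (7.41%). The share over the windows of all tested genes was not computed. The 2 motifs can share bases, which they did not in these windows. A match is a run of letters and says nothing on binding.

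Across the whole set, 0 of 48 tested genes passed an edgeR adjusted p of 0.05, as did 0 of 13566 genes (0%). DESeq2 called 1 of the 48 higher, Mgst2, against 0.693% of all genes, and 0 lower, against 0.708%. At an unadjusted edgeR p under 0.05, 3 of 48 (6.25%) were higher, Mgst2, Gpx8 and Gstt2, against 4.44% of all genes, and 0 were lower, against 4.47%. These shares lie near the background. The count of higher genes was 1 without WT replicate 11 and 7 without ++Oxtr replicate 7. The count of lower genes was 1, Ggt5, without ++Oxtr replicate 7 and without ++Oxtr replicate 8. Mgst2, Gpx8 and Lap3 had every ++Oxtr library above every WT library (6.25% of the 48, against 7.45% of all genes), and Ggt5 and Anpep had every one below (4.17%, against 7.61%). Of the tested genes 31 were on the higher side (64.6%, against 50.8% of all), and their median log2 fold change was 0.10, against 0.004 over all genes. The SD between replicates of a group in the mean log2 level of the tested genes was 0.130. That SD describes a mean in single libraries, so it does not measure the error of the median, which was not tested. Leaving out 1 library moved the log2 fold change of 33 of 36 named members by over 1.5 times or to the other sign. The exceptions were Mgst2, Lap3 and Gclm. Because this rule is a ratio, genes near 0 meet it after small shifts, such as Gstp1 (-0.02, with a range of -0.08 to 0.08). The share over all genes was not computed, so the count is a description.

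**Figure D2:**
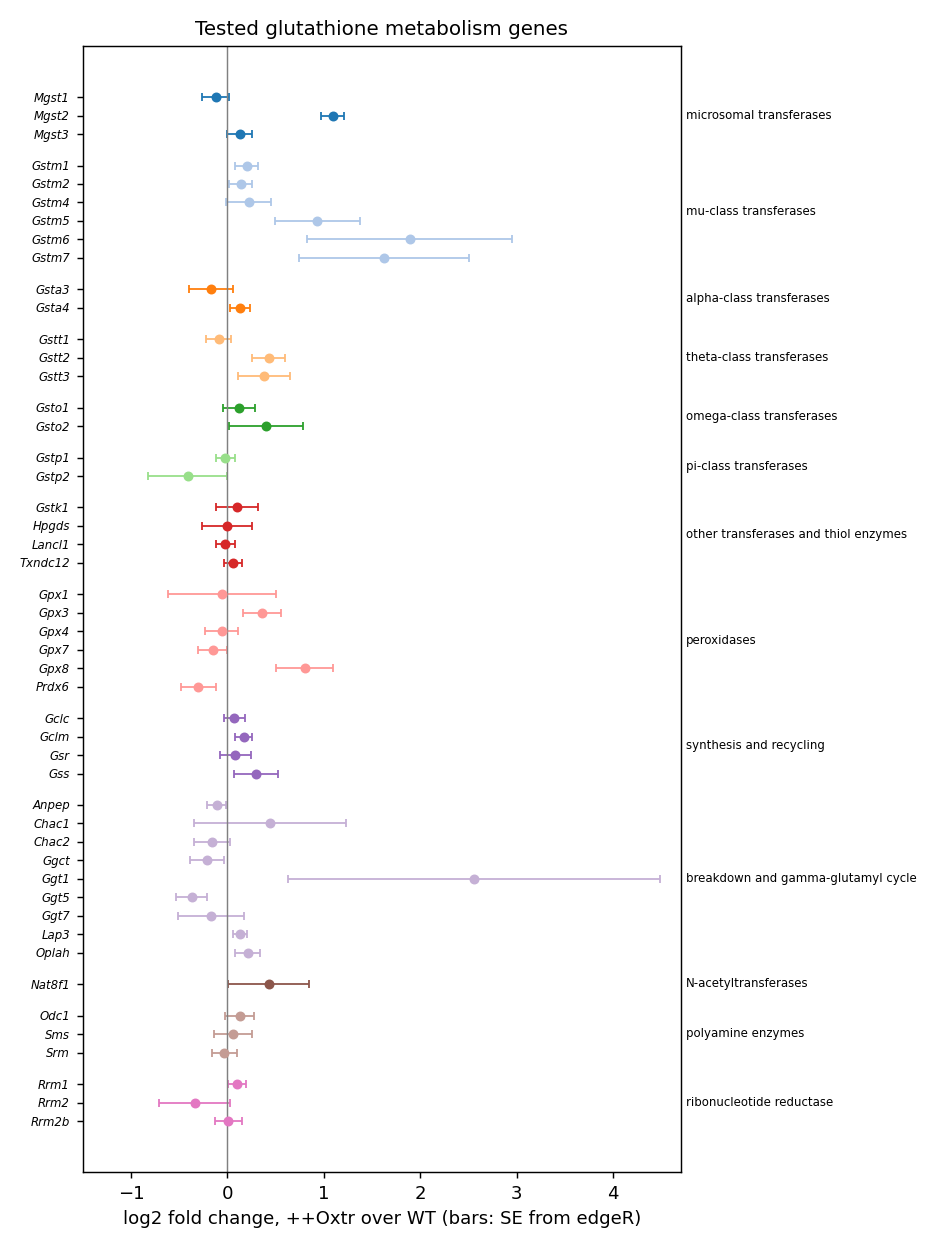
Log2 fold change of ++Oxtr over WT for the 48 tested genes, by role (points: edgeR estimate; bars: SE). Mgst2 stands at 1.09 with a short bar, while Gstm5, Gstm6, Gstm7 and Ggt1 have values of 0.93 to 2.56 with long bars.

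Among the peroxidases, Gpx8 was the second gene of the set by p. Gpx8 is a membrane protein of the endoplasmic reticulum that reduces peroxide there. It was at 64.7, 60.3 and 52.6 CPM in WT and at 77.7, 75.9 and 157 CPM in ++Oxtr. The groups did not overlap, but ++Oxtr 9 was far above the other libraries. Its log2 fold change of 0.80 (SE 0.30, edgeR adjusted p 0.502, DESeq2 adjusted p 0.145) was 0.37 without ++Oxtr replicate 9. Its unadjusted p was 0.0319 with all libraries, 0.0106 without ++Oxtr replicate 9, and 0.0607, 0.0681 and 0.0852 without WT replicate 10, 11 or 12.

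The other peroxidases overlapped between groups. Gpx3, the secreted plasma enzyme, was at 1254, 849.9 and 1128 CPM in WT and at 1341, 1112 and 1695 CPM in ++Oxtr (log2 fold change 0.36, SE 0.20, edgeR adjusted p 0.645), with 0.19 without ++Oxtr replicate 9. Gpx4, the enzyme that reduces phospholipid peroxides in membranes and holds back ferroptosis, was at 563, 581 and 509 CPM in WT and at 598, 588 and 394 CPM in ++Oxtr. Its log2 fold change was -0.06 (SE 0.17), and 34.7% of its transcript stretches of 50 bases also occur in an annotated pseudogene, so its count is uncertain. Prdx6, a peroxiredoxin that uses glutathione, had a log2 fold change of -0.30 (SE 0.18, edgeR adjusted p 0.662). In ++Oxtr 9, Gpx4 and Prdx6 were at their lowest over the 6 libraries, while Gpx3 and Gpx8 were at their highest. Gpx7, a relative of Gpx8 in the endoplasmic reticulum, was at 12.3 to 17.9 CPM over all libraries (log2 fold change -0.15, SE 0.15). Gpx1, the cytosolic enzyme, was counted at only 0.527 to 2.29 CPM (log2 fold change -0.06, SE 0.56). Gpx2, Gpx5, Gpx6 and Prdx6b had no read.

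Of the mu-class transferases, soluble enzymes encoded in 1 cluster on chromosome 3, the most abundant did not differ beyond their spread. Gstm1 was at 273, 266 and 249 CPM in WT and at 285, 347 and 272 CPM in ++Oxtr (log2 fold change 0.20, SE 0.12, edgeR adjusted p 0.655). Gstm2 had a log2 fold change of 0.14 (SE 0.12), and Gstm4 one of 0.22 (SE 0.23), which was 0.04 without ++Oxtr replicate 7 and 0.45 without ++Oxtr replicate 9. By FPKM, Gstm1 held 54.5% to 62.6% of the family and Gstm2 22.0% to 28.3%. Of the 50-base stretches of Gstm1, 18.9% occur in other genes, with 14.1% in Gstm2-ps1 and 8.2% in Gstm3. The share was 5.66% for Gstm2, with 0.7% in Gstm1. It was 0.532% for Gstm7, most often in genes outside the cluster, and 0% for Gstm4.

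Gstm5, Gstm6 and Gstm7 had larger estimates, and these came from 1 library. Gstm7 was at 7.55, 6.10 and 12.7 CPM in WT and at 6.11, 64.0 and 11.4 CPM in ++Oxtr 7, 8 and 9. Gstm5 was at 16.9, 16.5 and 18.2 CPM in WT and at 17.4, 57.7 and 23.3 CPM in ++Oxtr. Gstm6 was at 0.295, 0.277 and 1.38 CPM in WT and at 0.425, 5.67 and 1.21 CPM in ++Oxtr. All 3 genes were thus highest in ++Oxtr 8, while ++Oxtr 7 lay near the WT libraries. Their log2 fold changes were 1.62 (SE 0.88), 0.93 (SE 0.44) and 1.89 (SE 1.06), at edgeR adjusted p of 0.645, 0.598 and 0.647. Without ++Oxtr replicate 8 the value of Gstm7 was -0.01. In the DESeq2 fit without ++Oxtr replicate 7, chosen after seeing the data, Gstm5 passed (adjusted p 0.0398). Exons of Gstm5 overlap an antisense gene, 4933431E20Rik, over 13.9% of their bases, and whether counting used strand is not given.

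Ggt1, the gamma-glutamyl transferase that starts the breakdown of glutathione outside cells, was also highest in ++Oxtr 8. It had 0, 0 and 45 reads in WT 10, 11 and 12 and 1, 229 and 35 reads in ++Oxtr 7, 8 and 9. The log2 fold change was 2.56 (SE 1.93, edgeR adjusted p 0.725), and no fold is drawn from it, since single libraries hold nearly all reads. Several markers of multiciliated and other epithelium were highest in that library as well, 4 of 5 in the first list and 5 of 5 in the second. Foxj1, a regulator of motile cilia, was at 0, 0.139 and 5.90 CPM in WT and at 0.106, 29.2 and 6.55 CPM in ++Oxtr. Epcam, an epithelial adhesion protein, was at 0.413, 0.347 and 4.39 CPM in WT and at 0.159, 30.3 and 3.85 CPM in ++Oxtr. Of the 5 multiciliated markers none was at 0 in every library, and their summed level was 74.0 to 109 CPM in WT and 74.8 to 164 CPM in ++Oxtr, most of it from Tppp3, which was at 62.9 to 109 CPM throughout and highest in WT 10. The 5 epithelial markers summed to 20.2 to 49.4 CPM in WT and to 35.4, 131 and 45.1 CPM in ++Oxtr. Their part in the values of Ggt1, Gstm5, Gstm6 and Gstm7 was not tested. In bulk tissue, more cells of a type and more RNA per cell cannot be told apart.

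**Figure D3:**
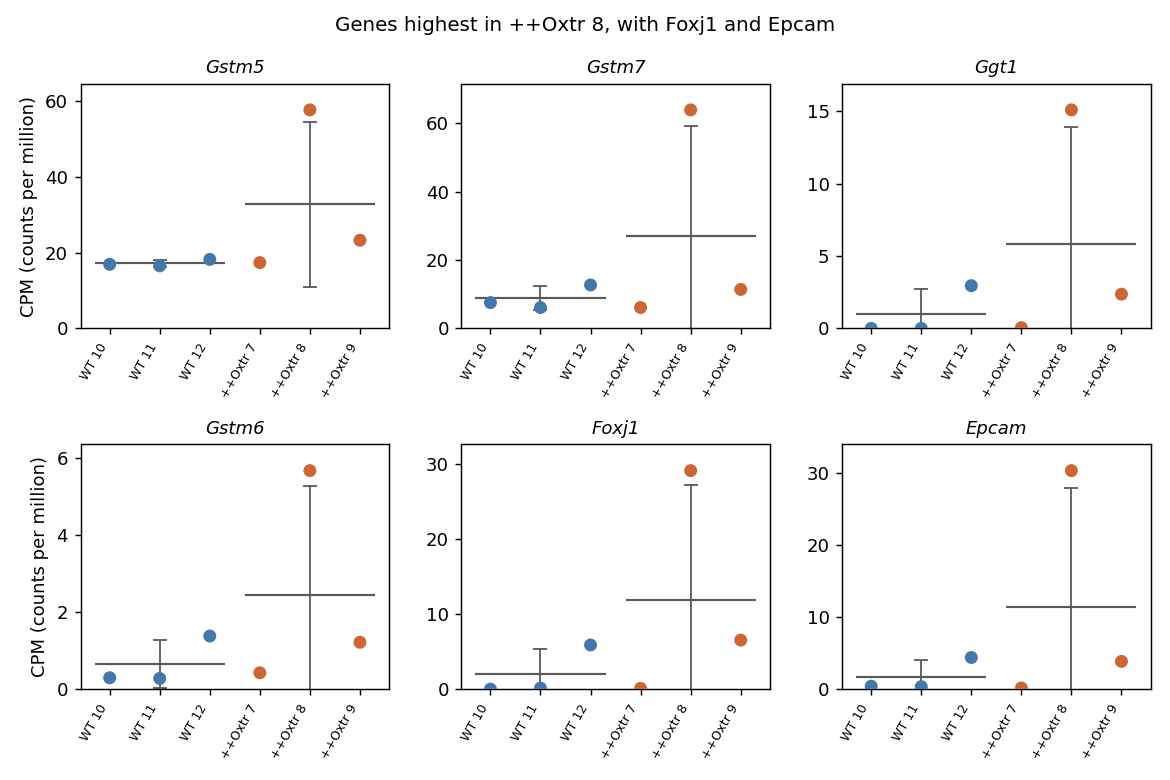
CPM of Gstm5, Gstm7, Ggt1 and Gstm6 and of the markers Foxj1 and Epcam in each library (points: blue WT, orange ++Oxtr; lines: group means; bars: SD of 3 libraries, cut at 0). ++Oxtr 8 is the highest library in all 6 panels, and ++Oxtr 7 lies near WT 10 and WT 11.

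The promoter windows of Gstm5 (chr3:107895604-107895903, plus strand) and of 1 start of Gstm7 (chr3:107931565-107931864, minus strand) are shown as the windows of Gstm5, Gstm6 and Gstm7 that held a motif. The other window of Gstm7 and all 3 of Gstm6 held neither, although Gstm6 was likewise highest in ++Oxtr 8. Capitals mark the same motifs as above.
Gstm5: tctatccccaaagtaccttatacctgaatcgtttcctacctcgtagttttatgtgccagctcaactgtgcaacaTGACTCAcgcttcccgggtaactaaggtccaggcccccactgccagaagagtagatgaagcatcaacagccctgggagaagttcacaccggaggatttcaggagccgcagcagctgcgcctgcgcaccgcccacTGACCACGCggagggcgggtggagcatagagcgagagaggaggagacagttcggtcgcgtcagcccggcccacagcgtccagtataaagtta
Gstm7: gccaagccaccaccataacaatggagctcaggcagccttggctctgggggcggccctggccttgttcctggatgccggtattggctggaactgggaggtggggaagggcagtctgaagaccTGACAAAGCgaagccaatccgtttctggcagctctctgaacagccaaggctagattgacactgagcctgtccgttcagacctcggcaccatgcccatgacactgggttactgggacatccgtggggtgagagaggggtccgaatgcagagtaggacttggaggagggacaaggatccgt
The Gstm5 window held TGACTCA at position -176 and the antioxidant core at position -42, and the Gstm7 window held the antioxidant core at position -129.

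The alpha-class transferases that were expressed did not differ beyond their spread. Gsta4, the enzyme for lipid aldehydes, was at 80.6, 85.2 and 75.8 CPM in WT and at 94.1, 91.5 and 78.7 CPM in ++Oxtr (log2 fold change 0.13, SE 0.10, edgeR adjusted p 0.718). Gsta3 was at 175, 218 and 138 CPM in WT and at 173, 186 and 113 CPM in ++Oxtr (log2 fold change -0.17, SE 0.23). The sign of Gsta3 turned to 0.02 without WT replicate 11 or ++Oxtr replicate 9. Gsta1 and Gm3776 had no read, and Gsta2 and Gsta5 had at most 2 in a library. These 4 genes share 49.4% to 92.5% of their 50-base stretches with other genes. The largest shares were with each other and Gm10639, so the split of reads among those is uncertain. The share was 0.273% for Gsta3 and 0% for Gsta4.

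In the theta class, Gstt2 was the third gene under an unadjusted p of 0.05. It was at 64.2, 46.5 and 47.6 CPM in WT and at 61.6, 65.7 and 85.7 CPM in ++Oxtr. WT 10 lay above ++Oxtr 7, so the groups overlapped. Its log2 fold change was 0.43 (SE 0.17, unadjusted p 0.0398, edgeR adjusted p 0.527), and 0.27 without ++Oxtr replicate 9 (unadjusted p 0.122). Its unadjusted p was 0.116 without WT replicate 11 and 0.113 without WT replicate 12. The neighbouring Gstt1, the most abundant of the class at 63.6% to 77.9% of its FPKM, had a log2 fold change of -0.09 (SE 0.13), and Gstt3 one of 0.38 (SE 0.27).

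None of the 8 remaining tested transferases and thiol enzymes passed, and their groups overlapped. Gsto2, of the omega class, was at 1.44 to 2.77 CPM over all libraries (log2 fold change 0.40, SE 0.38), and Gstp2, of the pi class, at 1.48 to 4.26 CPM (log2 fold change -0.41, SE 0.41). Gsto1, the more abundant omega-class gene, had a log2 fold change of 0.12 (SE 0.17), and Gstk1, the mitochondrial and peroxisomal enzyme, one of 0.10 (SE 0.22). Gstp1, the more abundant pi-class gene, was at 64.4 to 79.7 CPM in WT and 67.8 to 71.8 CPM in ++Oxtr (log2 fold change -0.02, SE 0.10). It shares 33.7% of its 50-base stretches with Gstp2, so the split of reads between them is uncertain. Hpgds, which makes prostaglandin D2, was at 5.20 to 9.09 CPM over all libraries (log2 fold change 0.00, SE 0.26).

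The genes of synthesis and recycling were all on the higher side by small amounts, and none of the 4 passed. Gclc and Gclm, the catalytic and modifier subunits of the rate-limiting ligase, lay at 0.07 (SE 0.11) and 0.17 (SE 0.09) on the log2 fold change scale. Gclm was at 56.0, 56.1 and 65.2 CPM in WT and at 62.5, 68.4 and 68.4 CPM in ++Oxtr, so WT 12 lay above ++Oxtr 7. Gss, the synthetase, was at 13.6, 16.1 and 15.3 CPM in WT and at 17.7, 24.5 and 12.9 CPM in ++Oxtr (log2 fold change 0.30, SE 0.23), and its value was 0.04 without ++Oxtr replicate 8 and 0.49 without ++Oxtr replicate 9. Exons of Gss overlap those of Acss2 and 2 antisense genes over 15.4% of their bases. Gsr, the reductase, had a log2 fold change of 0.08 (SE 0.16), and -0.09 without ++Oxtr replicate 8. Together the 4 genes summed to 38.1, 41.9 and 41.2 FPKM in the WT libraries, against 41.9, 48.9 and 36.4 FPKM in the ++Oxtr libraries.

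In breakdown and the gamma-glutamyl cycle, 3 of 9 tested genes separated the groups by small margins. These were 1 higher (11.1%, against 7.45% of all genes) and 2 lower (22.2%, against 7.61%). Ggt5, which cleaves leukotriene C4 and glutathione, was at 42.3, 37.5 and 42.1 CPM in WT and at 34.9, 35.8 and 23.6 CPM in ++Oxtr. All ++Oxtr libraries were lower (log2 fold change -0.37, SE 0.16, unadjusted p 0.0546, edgeR adjusted p 0.564). Lap3, a leucine aminopeptidase, was at 93.9, 90.0 and 96.1 CPM in WT and at 107, 100.3 and 100.4 CPM in ++Oxtr (log2 fold change 0.13, SE 0.07). Anpep, the membrane alanine aminopeptidase, had a log2 fold change of -0.11 (SE 0.10). Oplah, the oxoprolinase, whose exons overlap genes on the other strand over 11.7% of their bases, was at 67.0 to 77.1 CPM in WT and 73.7 to 101 CPM in ++Oxtr (log2 fold change 0.21, SE 0.13, and 0.07 without ++Oxtr replicate 9). Ggct, Chac2 and Ggt7 had log2 fold changes of -0.21, -0.16 and -0.17. Chac1, which degrades glutathione in the cytosol and is induced by endoplasmic reticulum stress, was at 9.14, 4.09 and 12.8 CPM in WT and at 6.53, 3.16 and 25.8 CPM in ++Oxtr. Its log2 fold change was 0.44 (SE 0.79), and -0.84 without ++Oxtr replicate 9.

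Polyamine enzymes and ribonucleotide reductase, which KEGG places in this pathway, had medians of 0.06 and 0.01 on the log2 fold change scale. Odc1, ornithine decarboxylase, had 0.13 (SE 0.15), and Rrm2b, the p53-inducible subunit, 0.01 (SE 0.14). Of the 50-base stretches of Odc1 24.3% occur in other genes, and of those of Rrm2b 10.7%, so both counts are uncertain. The Nat8 family of N-acetyltransferases, which includes the enzyme that finishes mercapturates, was near the detection limit. Of 7 members, 3 had most of their reads in ++Oxtr 9, with 42 of Nat8f3, 28 of Nat8f7 and 19 of Nat8, against at most 11, 5 and 1 in any other library. Nat8f1, the tested member, had 24, 10 and 16 reads in WT and 23, 20 and 26 in ++Oxtr (log2 fold change 0.43, SE 0.42), and Nat8f2, Nat8f5 and Nat8f6 had at most 5 in a library. The 4 T cell markers were also highest in ++Oxtr 9, at 29.6 CPM in sum against 4.94 to 13.1 CPM elsewhere, as were the sums of B cell markers, at 12.4 against 3.82 to 9.73 CPM, and of neutrophil markers, at 45.7 against 9.02 to 33.3 CPM. Their part in these counts was not tested. Nat8f7 shares 82.3% of its 50-base stretches with other genes.

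**Figure D4:**
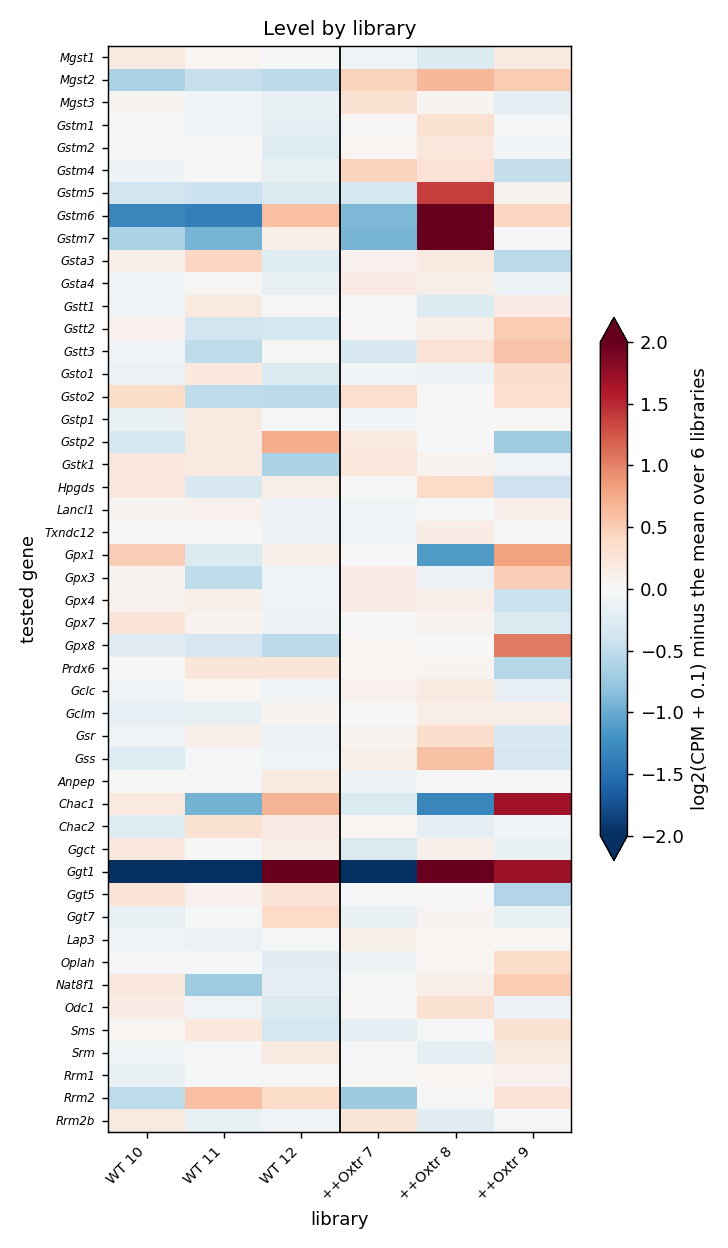
Level of each tested gene in each library as log2(CPM + 0.1) minus its mean over the 6 libraries (red higher, blue lower, values beyond 2 in size shown at the end colours). Mgst2 is blue in all WT and red in all ++Oxtr libraries, while Gstm5 to Gstm7, Ggt1, Chac1 and Gpx8 stand out in single libraries.

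By level, the set was dominated by few genes. All 67 genes summed to 2456, 2236 and 2304 FPKM in the WT libraries, against 2465, 2417 and 2625 FPKM in the ++Oxtr libraries. Gpx3 held 21.1% to 35.0% of it, Mgst1 13.5% to 18.6%, Gpx4 8.55% to 15.2% and Gstm1 6.90% to 9.65%. Mgst2 was at 3.28 to 3.72 FPKM in WT and 6.83 to 8.02 FPKM in ++Oxtr, so its difference hardly bears on the sum.

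**Figure D5:**
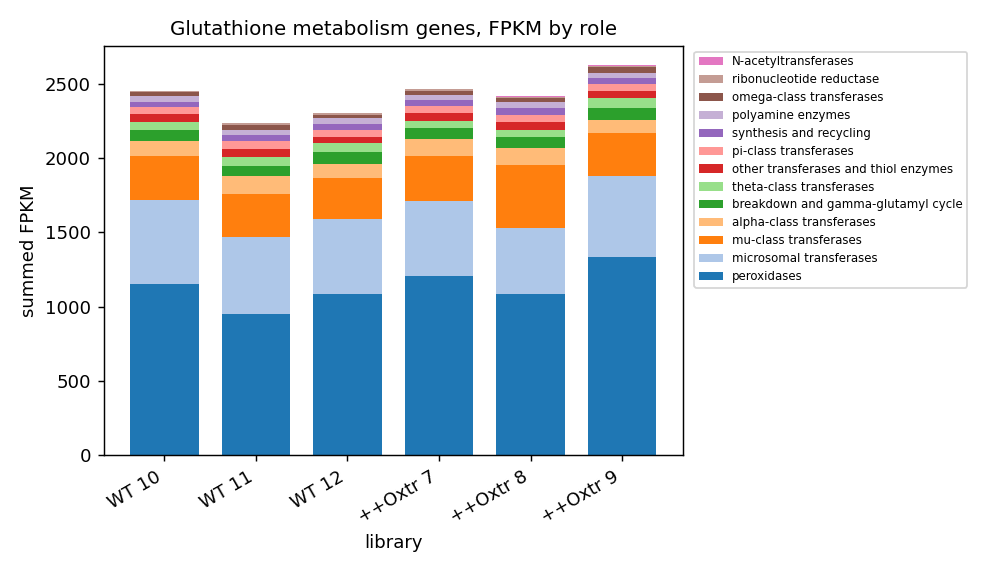
Summed FPKM of the 67 genes in each library, stacked by role. Peroxidases and microsomal transferases make up most of each bar, and the bars of WT (2236 to 2456) and ++Oxtr (2417 to 2625) overlap in height.

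Genes around NADPH supply, which glutathione reductase uses, were taken as a list outside the set. Of 13 tested, 3 were higher (23.1%, against 4.44% of all genes) and 1 was lower (7.69%, against 4.47%) by an unadjusted edgeR p under 0.05. The adjusted threshold was passed by 0 of them. G6pdx, Pgd, Idh1 and Idh2, the NADPH-making enzymes that the rule left out, had overlapping groups. Their log2 fold changes were 0.21 (SE 0.16), 0.13 (SE 0.40), 0.01 (SE 0.15) and 0.09 (SE 0.10). DESeq2 called Tkt (transketolase), Me1 (malic enzyme) and Mthfd2 (a mitochondrial folate enzyme), at adjusted p of 0.00129, 0.0126 and 0.0360. Tkt was at 1082 ± 340 CPM in WT and 2395 ± 506 CPM in ++Oxtr (SD, n = 3), and Mthfd2 at 13.2 ± 3.31 and 6.82 ± 1.34 CPM (SD, n = 3). Aldh1l1, a folate dehydrogenase, had a log2 fold change of 0.53 (SE 0.22), with overlapping groups, and its unadjusted p stayed under 0.05 in 1 of 6 fits with a library left out. Tkt passed under 7 of 20 alternatives, all DESeq2 fits, and Me1 and Mthfd2 under 3 of 20 each.

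A list of 19 tested genes held Nfe2l2, which encodes NRF2, its partners and repressors, and targets of NRF2 that were neither in the set nor in the list on NADPH. An unadjusted edgeR p under 0.05 was reached by 0 of them on the higher side and 2 on the lower side (10.5%, against 4.47% of all genes). Values on the higher side were found for 7, and the median log2 fold change was -0.05. These counts do not cover NRF2 targets placed in the list on NADPH, where 3 of 13 tested genes were higher and 1 was lower. Nqo1, a classical target, was at 6.19 to 6.73 CPM in WT and at 4.66 to 8.04 CPM in ++Oxtr. Hmox1, haem oxygenase, was at 55.0, 55.5 and 54.4 CPM in WT and at 39.8, 39.4 and 32.8 CPM in ++Oxtr (log2 fold change -0.56, SE 0.10, edgeR adjusted p 0.258, DESeq2 adjusted p 0.00341). Its groups did not overlap, and it passed under 6 of 20 alternatives. Aox1, an aldehyde oxidase, was the other lower gene (log2 fold change -0.25, SE 0.09, unadjusted edgeR p 0.0257). Its p stayed under 0.05 in 4 of 6 fits with a library left out. Hmox1, Aox1 and Cbr3 had every ++Oxtr library below every WT library (15.8% of the list, against 7.61% of all genes). No gene of the list had every one above, against 7.45% of all genes.

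Of 8 tested partners of the leukotriene and prostaglandin path, 7 were lower in value, with a median log2 fold change of -0.27. Lta4h and Cysltr1 were among them at -0.06 and -0.04, and the list's 1 gene on the higher side (12.5%, against 50.8% of all genes) was Ptges, a prostaglandin E synthase, at 0.47 (SE 0.29). An unadjusted edgeR p under 0.05 was reached by 2 on the lower side (2 of 8, against 4.47% of all genes). These were Alox5, the lipoxygenase that starts leukotriene synthesis, at 15.0 ± 4.33 CPM in WT and 8.29 ± 3.42 CPM in ++Oxtr (SD, n = 3), and Dpep1, a peptidase of leukotriene D4, at a log2 fold change of -0.29 (SE 0.12). The groups overlapped in both, and each kept that p in 2 of 6 fits with a library left out. Ltc4s, leukotriene C4 synthase, was at -0.34 (SE 0.53) on the same scale.

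In cysteine and glutamate supply, 2 of 13 tested genes were higher (15.4%, against 4.44% of all genes) and 1 lower (7.69%, against 4.47%) at that threshold. Glul, glutamine synthetase, had a log2 fold change of 0.81 (SE 0.34), and Cbs, which makes cystathionine, one of 1.04 (SE 0.35). The groups overlapped in both, and each kept its p in 2 of 6 fits with a library left out. Glul was at 3180 CPM in ++Oxtr 9 and at 1022 to 1939 CPM elsewhere, and its value was 0.40 without ++Oxtr replicate 9. Slc1a1, a glutamate and cysteine carrier, had one of -0.87 (SE 0.23), with groups that did not overlap. In conjugate export, 1 of 8 was higher (12.5%, against 4.44%), Slc25a11, a mitochondrial carrier, at 0.23 (SE 0.09), also in 2 of 6 such fits. No gene passed an unadjusted p of 0.05 among 14 of the thioredoxin list, 4 of superoxide dismutases and catalase, 5 of the glyoxalase list and 10 of selenoprotein synthesis. In the thioredoxin list, Txn2, Txnrd2, Prdx2 and Glrx2 had every ++Oxtr library above every WT library (28.6% of the list, against 7.45% of all genes), at log2 fold changes of 0.09 to 0.15. Sod2, the mitochondrial superoxide dismutase, did so too, at 0.24 (SE 0.10). All of these lists had 0 genes past the edgeR adjusted p.

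Markers of other cells also differed in level between the libraries. The summed level of 6 macrophage markers was 799 to 1033 CPM in WT and 601 to 674 CPM in ++Oxtr, with none at 0. Hmox1 and Alox5 are known to be expressed in macrophages. The 4 neutrophil markers summed to 12.6, 9.02 and 17.7 CPM in WT and to 33.3, 16.6 and 45.7 CPM in ++Oxtr, which overlapped. The 4 brown adipocyte markers summed to 10.7 to 17.3 CPM in WT and 21.1 to 31.3 CPM in ++Oxtr, but not together: in ++Oxtr 9, Cox8b made up 27.3 CPM, while Cidea was at 3.37 CPM, below every WT library. Ucp1, the uncoupling protein of brown fat, was at 2.98 CPM in ++Oxtr 7 and at 0.0694 to 0.461 CPM elsewhere. The 5 adipocyte markers summed to 10053 to 13635 CPM in WT and 8956 to 11456 CPM in ++Oxtr, which overlapped. The part of these cells in the values of Mgst2, Hmox1 and Alox5 was not tested.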

How the data were processed

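White adipose RNA of 3 WT and 3 ++Oxtr mouse libraries was made into NEBNext Ultra II libraries, per the labels' protocols. The deposited table gives, for each gene in each library, its raw count and its FPKM, as the authors named the columns. Recomputing the deposited FPKM from count, gene length and column sum left a relative error of at most 5.1e-15. The submitters' processing notes name mm10. For aligner, counter, annotation and strand setting: not given in the sources used here. Positions, exon overlaps and shared stretches are those of GENCODE M21 on GRCm38 (mm10). The deposited table's start or end equals the GENCODE M21 one for 0 of 67 members, and its gene length equals the exon length there for 66.

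Counts were tested with edgeR 4.0.16 in R 4.3.3 (quasi-likelihood, TMM, robust, filterByExpr, 13566 genes, no covariates) with Benjamini-Hochberg adjustment over all genes at 0.05. CPM uses the TMM factors. Exact 2-sided permutation tests ran over 20 assignments. DESeq2 1.42.0, limma 3.58.1 (voom with quality weights, and log2 of FPKM plus 0.5), other normalizations and filters, and libraries left out in turn were alternatives. The steps were tested on simulated data.

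Members and lists were chosen with earlier results of these data known. Named by rule were Oxtr, all tested Mgst, Gsta, Gstm, Gpx, synthesis, recycling and gamma-glutamyl genes, other members with an unadjusted p under 0.05, the most abundant member of each other family, and up to 4 genes of each related list under that p. Other genes were named after their values were seen.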

Additional observations from a re-analysis of the deposited data

How the results depend on the processing

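No paired analysis was possible because WT and ++Oxtr libraries carry different replicate numbers. DESeq2 passed 190 genes and 1 member (Mgst2) where edgeR passed 0 of each. With a library left out, chosen after seeing the data, DESeq2 passed 192, 154 and 113 genes without WT replicates 10, 11 and 12 and 279, 130 and 209 without ++Oxtr replicates 7, 8 and 9, with 1 to 2 members. edgeR with a library left out, the other normalizations and filters, summed rows and both limma fits passed 0 genes. At an unadjusted p under 0.01, 153 genes were higher and 175 lower, with 1 member higher. Leaving out a library gave 477 to 794 higher and 383 to 669 lower genes at 0.05, and 1 to 7 higher and 0 to 1 lower members, the 383 being without WT replicate 12. Limma on FPKM and no filter each gave 1 lower member. Higher calls were 49.9% of unadjusted calls, 32.2% with limma on FPKM and 60.6% with upper quartile factors. Including the rows of ko00030 and ko00020 left the member counts at 0, 3 and 0. The median of the tested members stayed between 0.04 and 0.13.

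Of 49 named genes 12 changed sign somewhere, and the cause was not tested. With a library left out, log2 fold changes ran from -0.01 to 2.10 for Gstm7, -0.31 to 0.02 for Gsta3, -0.20 to 0.01 for Gstt1, -0.04 to 0.28 for Gsto1, -0.08 to 0.08 for Gstp1, -0.12 to 0.25 for Gstk1, -0.64 to 0.32 for Gpx1, -0.17 to 0.11 for Gpx4, -0.09 to 0.23 for Gsr, -0.84 to 0.88 for Chac1 and -0.29 to 0.03 for Ggt7. Rrm2b, at 0.01 with all libraries, was at -0.04 (-0.05 by DESeq2) without WT replicate 11, -0.01 (-0.02) without WT replicate 12 and -0.11 without ++Oxtr replicate 7. DESeq2 gave 0.01 for Gsta3 and 0.07 for Gstp1 without WT replicate 11, 0.0 for Gstp1 without ++Oxtr replicate 7, and -0.13 for Gstk1 and 0.02 for Ggt7 without WT replicate 12. DESeq2 gave 0.17 for Gpx1 without WT replicate 10. Limma-voom put Gpx4 at 0.02 and Chac1 at -0.39, upper quartile factors put Gstp1 at 0.01, and limma on FPKM put Rrm2b at -0.03. Few reads limit what can be read from Gpx1, Ggt1, Gstm6 and the Nat8 genes.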

Other observations

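Libraries contributed unevenly to the highest and lowest values of the set. Of the 48 tested genes, 14 were highest in ++Oxtr 8 and 13 in ++Oxtr 9, against 6 in ++Oxtr 7. Over all tested genes those shares were 20.2%, 21.1% and 10.9%. The lowest value was in WT 12 for 12 of the 48 genes (14.0% over all tested genes) and in ++Oxtr 9 for another 12 (23.3% over all tested genes, near the share in the set).

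Gpx1, an enzyme of most tissues, had 8 to 34 reads per library, against 5840 to 11253 for Gpx4. None of its 50-base transcript stretches occurs in another gene of GENCODE M21, and its exons overlap no other gene there. The annotation used for counting is not given, and whether these reads reflect the level of Gpx1 RNA was not tested. Nnt, the mitochondrial transhydrogenase that makes NADPH, was at 0.198 to 0.478 CPM and was not tested. It was chosen after its values were seen.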
